A study of Mus musculus with 26 samples.

Results

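Sperm of older control mice was compared with sperm of young control mice by reduced representation bisulfite sequencing (RRBS), using 8 of the 26 libraries of the series. Control F0 were 3 untreated DBA/2J males of the founder generation, 16 to 18 months old when epididymal sperm was taken. Control F1 were 5 DBA/2J males of 3 months, bred from control males and DBA/2J females. None of these 8 mice had received or descended from transplanted spermatogonial stem cells under this naming. The age at collection, the generation and the use of the founders for breeding go together, so that they cannot be told apart, and the sources do not say which founder sired which offspring. Nothing says how the 8 libraries fell into the sequencing pools.

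The labels are in conflict over the young group. The 5 libraries used here as control F1 are those that the study's heatmap names control F1, whereas their deposited titles read SSCT F2/M with WT as the treatment. The mean coverages that the study lists for control F1 were recovered at 8 of 8 CpG positions from the libraries of the heatmap, and at 0 of 8 from the 5 libraries titled Control F1 (tolerance 0.06 reads). Results are therefore given first for the heatmap naming, and then against the titled libraries and against all 20 libraries of 3 months, a set that holds control F1 under either naming together with offspring of transplanted males.

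Cytosine methylation at CpG sites is laid down in male germ cells before birth and is maintained through the divisions of spermatogonial stem cells, which continue throughout adult life. Most CpGs of mature sperm are highly methylated, while CpG-rich promoters are kept free of methylation. Imprinted genes carry methylation of only one parental origin, so that sperm is methylated at the paternally marked loci and unmethylated at the maternally marked ones. RRBS cuts DNA at a short recognition site and thus reads mainly CpG-rich fragments. The methylation level is the share of reads in which a cytosine resisted bisulfite.

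Read counts summed over CpG positions were similar in both groups, at 51386036 to 87707577 in control F0 and 49632926 to 72218747 in control F1. A read that covers several CpGs is counted at each of them. The highest total and the lowest read-weighted methylation belonged to the same library, control F0 replicate 2, at 28.4% against 35.5% to 39.4% in the other 7. In an unmethylated control DNA, at most 0.957% of reads were methylated in any of the 8 libraries. Imprinted and germline genes were read for a comparison of the groups, not as a check of the tissue, since windows were first sorted by their level in sperm. In the class of low windows, those under 20% in the pooled reads of the other 15 libraries, maternally methylated imprinted genes averaged 3.91% ± 0.994 (SD, n = 3) in control F0 and 4.18% ± 0.708 (SD, n = 5) in control F1 over 65 of their 148 windows. Germline genes averaged 3.32% ± 1.15 and 4.02% ± 0.904 over 30 low windows of 75. Paternally methylated imprinted loci averaged 95.1% ± 2.76 and 97.7% ± 0.854 over 16 high windows of 38, those over 80%. Over all windows of these lists, which also hold gene bodies and flanks, the means were 52.6% and 52.3% for maternally methylated genes, 56.7% and 56.9% for germline genes and 46.4% and 48.0% for paternally methylated loci, so that the sperm label could not be checked in this way. Over the 16 high windows of paternally methylated loci, control F0 mice measured 95.9%, 97.4% and 92.0%, and control F1 mice 97.2%, 98.4%, 98.1%, 98.2% and 96.4%. The groups overlapped, and the difference did not pass a two-sided exact permutation test (p = 0.0536, 3 such tests made, not adjusted).

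Over all windows of 1000 bp, the groups differed by less than the spread between mice. The mean over 140438 windows was 64.4%, 63.2% and 64.0% in the control F0 mice, and 64.2%, 64.2%, 64.2%, 63.8% and 64.3% in the control F1 mice. Control F0 replicate 2 lay below the range of the young mice and replicate 1 just above it. The difference was -0.273 percentage points (63.9% ± 0.64 against 64.2% ± 0.186) and did not pass the exact permutation test (two-sided, p = 0.446). With 3 mice against 5, this test has 56 splits and cannot go below 0.0179. Without control F0 replicate 2 the difference was 0.0741 points in the opposite direction.

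Windows were then sorted by their level in the pooled reads of the 15 other young libraries. The 40783 low windows averaged 4.16% ± 0.232 in control F0 and 4.25% ± 0.143 in control F1, and the 81494 high windows 96.4% ± 0.35 and 96.6% ± 0.0791. The spread between mice was widest in the 18161 middle windows (20% to 80%). There the control F0 mice measured 54.4%, 48.8% and 52.8%, and the control F1 mice 53.1%, 53.6%, 53.7%, 51.7% and 54.1%. The lowest and the highest of the 8 values were both from older mice. No class differed between the groups in the exact permutation test (p = 0.518, 0.464 and 0.446 for low, middle and high windows, each 0.518 after Benjamini-Hochberg adjustment over 3 classes). All 3 differences changed sign without control F0 replicate 2.

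**Figure D1:**
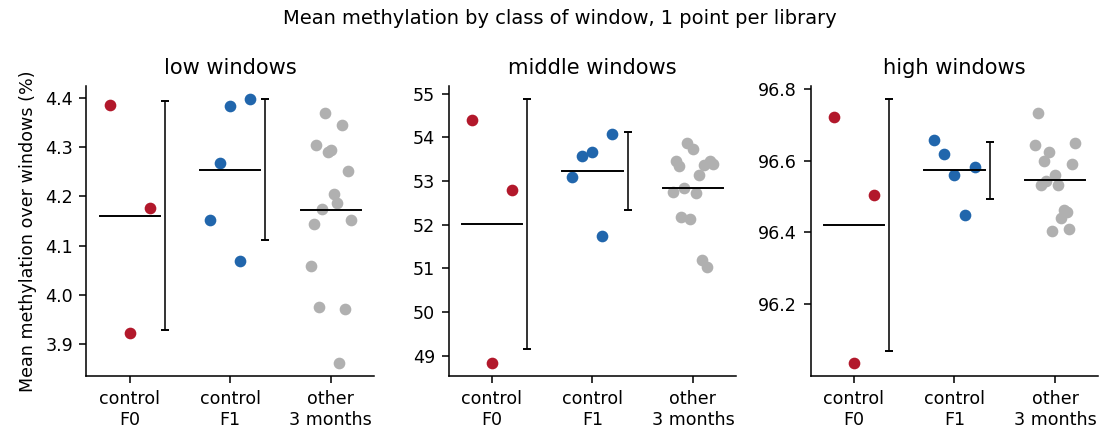
Mean methylation (%, y axes with different ranges that do not start at 0) over low, middle and high windows, with 1 point per library for control F0 (n = 3), control F1 (n = 5) and the other 15 libraries of 3 months. Horizontal lines are means and bars are SDs, and control F0 replicate 2 is the lowest of the 8 compared libraries in each class, at 48.8% in middle windows.

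The distances between mice were close within and between the groups. After every CpG position was thinned to 10 reads, 2 mice differed by 5.50 to 5.87 percentage points on average over 766261 positions. The mean was 5.70 points within control F0 (3 pairs), 5.69 within control F1 (10 pairs) and 5.70 between the groups (15 pairs). Neither the difference within groups (two-sided exact permutation p = 0.911) nor the excess between them (0.000518 points, one-sided exact permutation p = 0.482) passed. Against all 20 young libraries the excess was 0.00786 points with an exact permutation p of 0.039 (one-sided), 1 of 4 young sets tried. Single positions far from their class were counted as well. At positions of the high class, 1.39% ± 0.282 in control F0 and 1.30% ± 0.305 in control F1 were at or under 50% methylation (exact permutation p = 0.679). At positions of the low class, 0.663% ± 0.246 and 0.763% ± 0.153 were at or over 50% (exact permutation p = 0.571).

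Single sites and windows were tested with a logistic model of the reads, as methylKit does by default, and called at a q-value under 0.01 and a read-weighted difference over 25 percentage points. Of 766261 autosomal CpG positions 6220 were differentially methylated cytosines (DMCs), which is 0.812% of those tested, 3765 lower and 2455 higher in control F0. Of 140438 windows 1118 were differentially methylated regions (DMRs), which is 0.796%, with 765 lower and 353 higher. The lower share was 68.4% of DMRs. It was 56.3% without control F0 replicate 2, which had the lowest methylation of the 8 mice, and 73.8% without replicate 1. This model takes reads, not mice, as its units, and an F test in which the variance was taken from the mice called 0 positions and 0 windows, with 2481 positions and 456 windows over 25 points at an unadjusted p under 0.05. limma called 0 of each, with 3451 and 554.

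**Figure D2:**
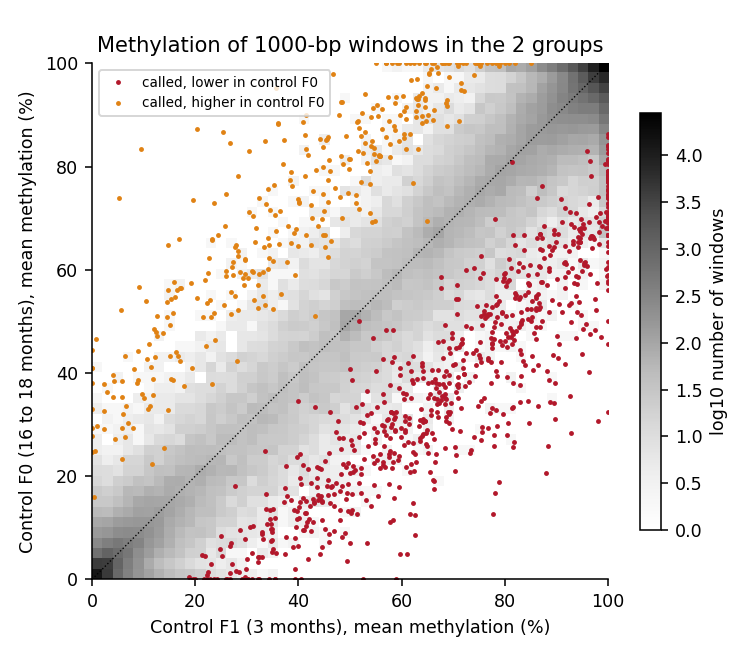
Mean methylation (%) of each 1000-bp window in the 5 control F1 mice (x axis) and the 3 control F0 mice (y axis). Grey shows the number of windows on a log10 scale and points are the 1118 called windows. By the read-weighted difference 765 of them were lower and 353 higher in control F0. The points are drawn at the unweighted means of the mice, and the dotted line marks equality.

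Most windows scarcely differed. The median absolute difference of the group means was 1.74 points, and 91.5% of windows were within 10 points. Windows with all 3 control F0 mice outside the range of the 5 control F1 mice numbered 2993 (2.13% of those tested), 1745 below and 1248 above it. The share that other splits of the mice would give was not tested, here or for later counts of this kind. Among DMRs there were 251 such windows (22.5%), 167 below and 84 above. DMRs lay mainly in the middle class, which held 825 of them (73.8%), or 4.54% of middle windows. Windows between annotated gene spans held 574 DMRs, or 1.25% of such windows, gene spans outside promoters 495 (0.618%) and windows with a promoter 49 (0.34%).

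DMRs also rested on few CpGs. A single covered position made up 777 of them (69.5%), 2 positions 235, 3 to 5 positions 98 and 6 to 10 positions 8, while none of the 16128 windows with over 10 positions was called by the logistic model (F test 0 calls over all windows as well). The called share was 2.04% of windows with 1 position, 0.715% with 2 and 0.259% with 3 to 5. Windows without overlap followed another order, at 1.06% with 1 position and 3.39% with over 10.

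The strands of a CpG were read on separate DNA fragments of the same mice, so that each DMC could be compared with its opposite strand. Maintenance methylation copies the mark of the parent strand to the new one, and both strands of a CpG are therefore usually methylated alike. The levels of both strands were close over all 214306 positions with the other strand tested (r = 0.95 across positions, which share mice and libraries and are not independent). The differences between control F0 and control F1 were not (r = 0.01). Of 852 DMCs with the other strand tested, 451 (52.9%) differed in the same direction on the other strand and 32 were called there in that direction. The median difference was 29.2 points on the called strand and 1.14 points, in the direction of the call, on the other. In either direction 50 other strands (5.87%) were called. Over all 214306 positions 42.6% of other strands had the same direction and 0.398% were called. At positions with a mean of 20% to 80% these shares were 50.3% and 6.28%, close to those of DMCs.

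A neighbouring CpG on the same strand, often read on the same fragments, did differ with the DMC. For 4055 DMCs with a tested neighbour within 40 bases, 2932 neighbours (72.3%) differed in the same direction, by a median of 10.7 points, and 871 were called in it. In either direction 904 neighbours (22.3%) were called. Over all 638322 positions with such a neighbour 43.0% had the same direction and 0.619% were called. At positions with a mean of 20% to 80% these shares were 64.4% and 7.45%. The contrast of other strands with same-strand neighbours was also seen at higher depth. Among DMCs with at least 30 reads in each library, 42 of 74 other strands (56.8%) and 253 of 311 same-strand neighbours (81.4%) had the direction of the call. Of DMCs lower in control F0, 58.6% of other strands were lower too, and of those higher 44.9% were higher. These comparisons were chosen after the calls had been seen.

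**Figure D3:**
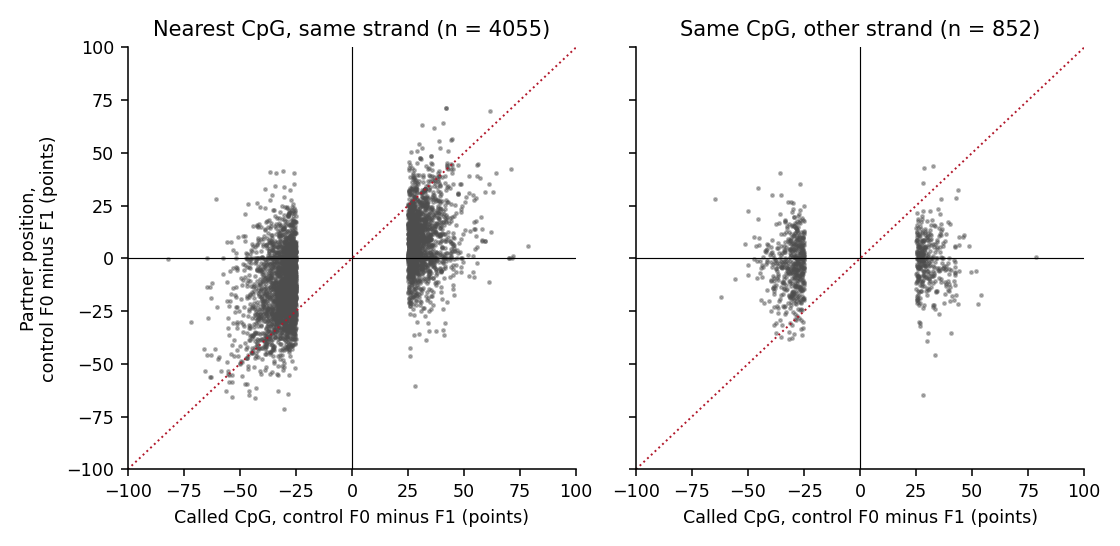
Difference of control F0 minus control F1 (percentage points) at each DMC (x axis) against the nearest CpG on the same strand (left, n = 4055) and against the other strand of the same CpG (right, n = 852). The dotted line marks equal differences, and the points follow it in part on the left (median 10.7 points in the direction of the call) but scatter around 0 on the right (median 1.14 points).

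Promoters were looked at as a unit of their own, the 250 bases before and 50 after each RefSeq gene start, chosen after the windows had been seen. Of 10539 promoters with covered CpGs, 9291 were at or under 5% in control F1, and 17 (0.161%) were called, 10 lower and 7 higher. Of these, 15 rested on 1 or 2 positions, and Gm33185 counted under both of its overlapping starts. At a difference over 10 points 162 (1.54%) were called, 78 lower and 84 higher. No overlap between the groups was seen in 257 promoters (2.44%), 94 lower and 163 higher in control F0. Both called at 10 points and without overlap were 26 promoters, 12 lower and 14 higher. With at least 3 positions 7 of these promoters remained, 6 of them lower in control F0. The sequences of 4 of them are given because their covered CpGs can be followed one by one. They are RefSeq sequences of GRCm38.p6, 5′ to 3′ in the direction of the gene, with the covered CpGs in capitals. Nfs1 lies at chr2:156144137-156144436, Srgn at chr10:62527396-62527695, Gm51556 at chr8:120490404-120490703 and Gm46300 at chr11:110551681-110551980, all on the minus strand.
Nfs1: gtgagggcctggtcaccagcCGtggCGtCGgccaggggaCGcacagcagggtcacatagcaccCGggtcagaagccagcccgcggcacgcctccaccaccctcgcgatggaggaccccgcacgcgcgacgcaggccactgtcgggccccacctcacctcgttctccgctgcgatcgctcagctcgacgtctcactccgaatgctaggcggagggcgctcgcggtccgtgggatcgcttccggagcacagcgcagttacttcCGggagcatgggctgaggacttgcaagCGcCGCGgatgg
Srgn: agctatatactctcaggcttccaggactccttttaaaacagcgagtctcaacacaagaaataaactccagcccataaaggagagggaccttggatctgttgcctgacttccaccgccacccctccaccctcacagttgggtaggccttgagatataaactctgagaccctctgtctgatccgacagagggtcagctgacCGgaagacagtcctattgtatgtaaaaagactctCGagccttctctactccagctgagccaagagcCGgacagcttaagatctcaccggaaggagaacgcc
Gm51556: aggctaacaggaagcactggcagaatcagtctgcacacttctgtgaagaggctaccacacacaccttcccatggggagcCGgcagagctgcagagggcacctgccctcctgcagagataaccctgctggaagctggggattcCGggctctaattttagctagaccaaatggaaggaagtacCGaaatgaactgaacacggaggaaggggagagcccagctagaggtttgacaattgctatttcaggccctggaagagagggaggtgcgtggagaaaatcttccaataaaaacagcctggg
Gm46300: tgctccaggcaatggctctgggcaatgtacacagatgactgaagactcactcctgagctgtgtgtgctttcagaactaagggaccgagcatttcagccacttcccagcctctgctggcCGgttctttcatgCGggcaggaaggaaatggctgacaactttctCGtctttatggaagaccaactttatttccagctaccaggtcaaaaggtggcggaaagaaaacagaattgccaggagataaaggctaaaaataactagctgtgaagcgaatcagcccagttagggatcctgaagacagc

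Nfs1, the mitochondrial cysteine desulfurase that supplies sulfur to iron-sulfur clusters, has 35 CpGs in this stretch, and 9 were covered at 10 positions of either strand. Its promoter measured 19.9%, 17.6% and 20.3% in the control F0 mice and 36.9%, 31.5%, 23.2%, 35.7% and 38.3% in the control F1 mice. All older mice were below all young mice. The group means differed most at the 4 positions after the gene start, all on the minus strand (the last 4 CpGs in capitals). At the position 11 bases after the start, control F0 measured 29.6%, 51.9% and 35.7%, and control F1 65.9%, 71.4%, 97.2%, 52.1% and 75.0%. At each of the 4, control F0 replicate 2 had 51.9% and control F1 replicate 4 had 52.1%. Their promoter values were nevertheless 17.6% and 35.7%. A promoter value sums reads over positions of unequal depth (11 to 90 reads), and so also depends on how reads fell among them. Positions upstream were near 0 in nearly all mice. Control F1 replicate 4 had 43.8% and control F0 replicate 2 had 8.99% at position -186 from the start, and the latter had 15.6% at position -230. The libraries titled Control F1 covered a range of 8.81% to 41.1%, which holds the older mice, and against them the read-weighted difference was -6.58 points and not called.

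Srgn encodes serglycin, a proteoglycan of secretory granules in blood cells. Its promoter measured 30.9%, 18.96% and 29.1% in control F0 and 48.7%, 34.9%, 53.6%, 33.3% and 37.7% in control F1. The strands differed in what they showed. At position -16 from the start, read on the plus strand, control F0 averaged 16.1% and control F1 47.4%. The minus strand of the same CpG averaged 31.6% and 29.6%, with mice of the groups intermingled.

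Gm51556, a predicted gene, was the only one of these 7 promoters in which the older mice lay outside the range of all 20 young libraries. Control F0 measured 12.6%, 12.9% and 14.2%, against 20.3%, 25.3%, 27.0%, 29.8% and 26.2% in control F1 and 15.5% to 34.5% in the 20. In all, 7 of 9640 promoters (0.0726%) had the older mice outside that range. Its CpG at position -108 averaged 21.9% against 26.01% on the minus strand and 25.1% against 40.3% on the plus strand. Gm46300, also a predicted gene, had the largest difference of the 7, with 37.5%, 24.8% and 40% in control F0 and 89.4%, 60.6%, 97.9%, 100% and 99.5% in control F1. It had only minus-strand positions, and the young libraries reached down to 19.5%.

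**Figure D4:**
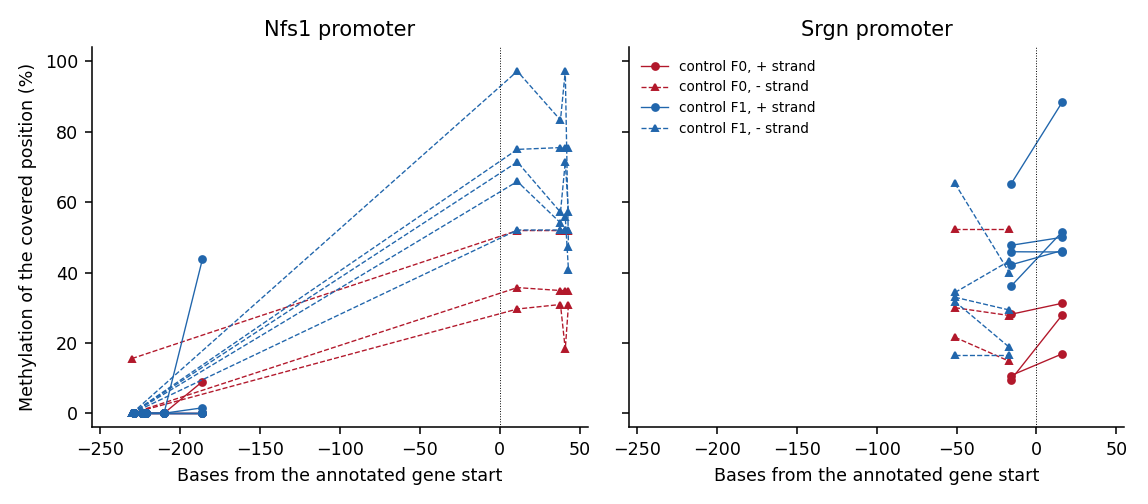
Methylation (%) of each covered position of the Nfs1 and Srgn promoters against the distance from the annotated gene start in bases, 1 line per mouse and strand. Circles with solid lines are the plus strand and triangles with broken lines the minus strand. In Nfs1 the group means differ at minus-strand positions after the start (39.1% against 72.3% at position 11). There control F0 replicate 2 nearly meets control F1 replicate 4, and mice of the groups overlap at position 43. In Srgn the groups part on the plus strand (16.1% against 47.4% at position -16) but not on the minus strand.

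Windows were named by size of difference among DMRs without overlap between the groups, with at least 3 positions and an annotated gene. Of 14 such windows lower in control F0 the 12 with the largest differences were named, and of those higher all 3. A second part of the rule took DMRs in which the older mice lay outside the range of all 20 young libraries, and added Gm36785. Because the rule used these values, they are given as a description. The window of Itpr2 had the largest gain. Itpr2 encodes a receptor for inositol trisphosphate that releases calcium from the endoplasmic reticulum. Its window at chr6:146443001-146444000, inside the gene, measured 75.0%, 74.0% and 75.0% in control F0 and 27.7%, 33.5%, 33.8%, 1.16% and 33.7% in control F1. The SD of the older mice was 0.558 points, and the 20 young libraries reached from 1.16% to 71.1%. All 4 positions were on the plus strand. The call held with at least 5 reads, against the other young sets and with each library left out, at 27.5 points or more.

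Manba, the lysosomal beta-mannosidase, was the one named window lower in control F0 than in every young library. It measured 56.6%, 29.7% and 57.8% in control F0 and 78.7%, 76.0%, 80.4%, 88.1% and 83.7% in control F1 (chr3:135566001-135567000, 185 to 282 reads per mouse). The 20 young libraries lay between 68.0% and 94.0%. Both strands were lower in older sperm, with read-weighted differences of -39.1 points on the plus strand and -15.7 points on the minus strand. Mice overlapped on the minus strand, where control F0 replicate 1 had 74.2% and control F1 71.4% to 97.2%. The difference of the whole window was under the threshold of 25 points without control F0 replicate 2 (-24.0 points) and against the titled libraries (-22.8). Gm36785, a predicted gene, was higher on both strands (21.95 and 42.8 points, read-weighted), with 77.4%, 84.3% and 78.3% in control F0, 69.1%, 36.6%, 35.8%, 52.1% and 30.4% in control F1 and at most 70.2% in the 20 (chr13:71074001-71075000). On its plus strand alone mice overlapped, at 59.2% to 85.4% in control F0 and 7.69% to 76.0% in control F1. With at least 20 reads the difference of the Gm36785 window was 21.95 points and not called. Of 114478 windows with at least 10 reads in every young library, 73 (0.0638%) had the older mice outside the range of the 20, 48 of them below it. Of those 73, 9 were DMRs and these 3 had at least 3 positions.

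Lrrc75a and Syn2 were lower on both strands by over 25 points each. Syn2 encodes synapsin II, a protein of synaptic vesicles, and its window at chr6:115159001-115160000 measured 66.7%, 45.6% and 60.7% in control F0 and 83.9%, 92.1%, 100%, 77.2% and 82.8% in control F1. The window of Lrrc75a (chr11:62630001-62631000) measured 39.2%, 35.7% and 30.1% against 72.9%, 65.7%, 68.5%, 78.0% and 48.8%. The libraries titled Control F1 overlapped with the older mice in Lrrc75a (21.9% to 65.9%) and in Syn2 (from 60.8%), and against them the read-weighted differences of -19.9 and -19.8 points were not called. Both strands were covered in 67008 of all 140438 windows but in only 69 of the 1118 DMRs, while 1049 DMRs had 1 strand covered. In 11 of the 69 both strands passed 25 points, all lower in control F0. Of these, 4 had no overlap with the strands summed. The others besides Syn2 and Lrrc75a, singled out after their values were seen, were a window of Tbx19, a T-box factor of the pituitary, with 41.7%, 22.8% and 38.5% against 97.9%, 63.1%, 100%, 86.2% and 67.9%, and one with no gene within 2000 bp at chr11:14007001-14008000. Taken singly, both strands kept the groups apart in Syn2. Mice overlapped on the plus strand of Tbx19, with 100%, 0% and 78.4% in control F0 against 67.2% to 100% in control F1. They also overlapped on the minus strand of Lrrc75a, narrowly, and on each strand of the chr11:14007001-14008000 window. Since a DMR needs over 25 points over both strands together, agreement of the strands in these windows is partly fixed by the call.

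In 3 further named windows the read-weighted differences of the strands parted. Fits with other libraries or read limits chose their covered positions anew, so that a lost call need not come from a mouse left out. In Cmklr1, which encodes the receptor of the adipokine chemerin, 3 minus-strand positions were lower by -55.7 points and the plus-strand one by -4.99. The window lost its call with at least 20 reads (-4.99 points), against the titled libraries (-13.9) and without control F0 replicate 2 (-22.3) or control F1 replicate 4 (-15.9). In Camta1, a calmodulin-binding transcription factor, 5 minus-strand positions were higher by 27.3 points and the plus-strand one by 0.828. The window lost its call without control F1 replicate 4 (19.9 points), control F0 replicate 1 (24.6) or control F0 replicate 2 (22.6), and also with at least 5 reads (24.4), against the titled libraries (8.77) and against all 20 (14.2). In Col6a1, a chain of type VI collagen, the minus strand differed by -27.5 points and the plus strand by 0. The window lost its call without control F0 replicate 2 (-16.9 points) or control F1 replicate 3 (-23.7) and with at least 20 reads (-14.5).

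Of the named windows read on 1 strand, Tet2 stands out by function, since it encodes an enzyme that oxidizes methylcytosine on the way to its removal. Its intragenic window at chr3:133534001-133535000 measured 43.3%, 42.6% and 28.6% in control F0 and 71.4%, 48.5%, 89.3%, 47.9% and 71.7% in control F1, and 30.1% to 89.3% in the 20 young libraries. Against the titled libraries the read-weighted difference was -1.46 points. Leaving out control F0 replicate 3 (-24.8 points) or control F1 replicate 2 (-18.2), 3 (-20.5) or 4 (-21.1) ended the call. Every fit without a library chose its covered positions anew, so that a lost call need not come from the mouse left out. At the positions of the main comparison control F1 replicates 2 and 4 were themselves below the control F1 mean of 65.8%. Macrod2, which encodes a mono-ADP-ribosylhydrolase, differed by -62.5 points between the means of the mice and by -43.2 points when weighted by reads. Its window measured 0%, 57.7% and 20.0% in control F0 and 69.0% to 100% in control F1, but from 0% to 100% in the 19 young libraries with at least 10 reads. The read-weighted difference was -69.0 points without control F0 replicate 2 and -24.1, no call, without control F1 replicate 3. Between the means of the mice, the remaining losses were in Skap1, an adaptor of T-cell signalling (-47.4 points), Jph3, a junctophilin (-38.8), Synj2, a phosphoinositide phosphatase (-37.9), Atrnl1 (-33.7) and Socs2, a suppressor of cytokine signalling (-30.1). The remaining gain was in Pmfbp1, a gene needed to join the sperm head to its tail (23.0 points, read-weighted 27.2). Jph3 lost its call without control F1 replicate 4 (-17.0 points, read-weighted) and Atrnl1 without control F0 replicate 3 (-22.6). Pmfbp1 lost it without control F0 replicate 2 (23.4) or control F1 replicate 2 (24.4). In each of these 6 the young libraries with at least 10 reads (18 for Skap1, 19 for Socs2, otherwise 20) overlapped with control F0. At the same positions the titled libraries averaged 83.7% in Socs2 and 7.99% in Pmfbp1, against 61.4% and 38.7% in control F0, which is the direction above. At the positions kept in a fit against the titled libraries Socs2 differed by 35.8 points and Pmfbp1 by -4.72, in the opposite direction.

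**Figure D5:**
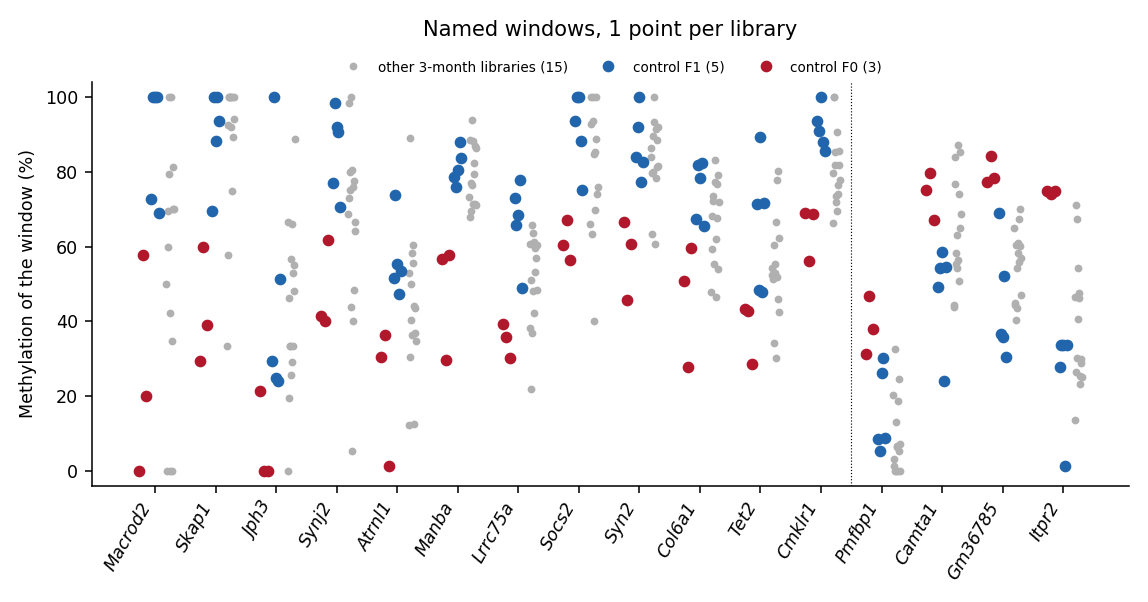
Methylation (%) of the 16 named windows, 1 point per library with at least 10 reads, for control F0 (red, n = 3), control F1 (blue, n = 5) and the other libraries of 3 months (grey, n = 15). Windows left of the dotted line are lower in control F0; in Manba, Gm36785 and Itpr2 the 3 red points lie outside all others.

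Gene lists were described by their windows, inside the gene span or within 2000 bp (5000 bp for imprinted genes). Over all windows the median difference was 0 and the median absolute difference 1.74 points, against 0.796% called. None of the 38 windows of paternally methylated imprinted loci, 148 of maternally methylated imprinted genes, 75 of germline genes and 145 of spermiogenesis genes was called by the logistic model, with the F test calling 0 over all windows. At H19, the paternally methylated locus beside Igf2, one window measured 71.1%, 99.3% and 97.8% in control F0 and 91.4% to 100% in control F1. At Meg3 one window measured 76.0%, 98.2% and 84.4% against 94.5%, 100%, 100%, 100% and 100%. In both the lowest value was that of control F0 replicate 1.

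Of 80 windows of genes for writers and erasers of DNA methylation 1 was called, that of Tet2. For Dnmt1, the maintenance methyltransferase, a window with 1 position had 54.5% in control F0 replicate 1 and 100% in the other 7 mice. Ageing and nutrient-sensing genes had 1 of 248 windows called, at Cdkn1a, the cell-cycle inhibitor p21. It was higher in control F0, with 46.4%, 82.8% and 47.8% against 30.8%, 35.4%, 53.8%, 51.2% and 25.9%, and the groups overlapped. Hox clusters had 1 of 190, at Hoxb3, lower with 26.3%, 23.3% and 0% against 51.7%, 46.6%, 35.7%, 34.6% and 66.1%, without overlap. The Wnt pathway had 1 of 358, at Wnt2, with overlap.

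Developmental transcription factors had 6 of 699 windows called, or 0.858%, and synaptic genes 5 of 938, or 0.533%. The former were lower in control F0 at Dlx1, Foxa2, Pax5, Tbx3 and Gata2 and higher at Dlx3, and each had overlapping mice. Of them Foxa2, a factor of endoderm, measured 3.64%, 12.1% and 0% against 50.0%, 44.1%, 0%, 45.0% and 34.8%. The synaptic ones were all lower, at Grin2d, Dlg2, Shank3, Grm4 and Dlgap1, each on 1 position and each with overlap. In each of these the mean of the libraries titled Control F1 was also above that of control F0. At Dlgap1, a scaffold of the postsynaptic density, control F0 had 61.7%, 57.1% and 100%, and every control F1 mouse 100%. At Dlg2, another such scaffold, control F0 had 100%, 82.6% and 48.6% and every control F1 mouse 100%. Control F0 replicates 1 and 2 were thus below 100% at Dlgap1, and replicates 2 and 3 at Dlg2. The medians of the lists lay between -0.428 and 0.338 points.

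The 6 genes that the study followed by bisulfite PCR had 19 windows, 3 of them called. This list was chosen by the study on libraries that include these. Gpx8, a glutathione peroxidase of the endoplasmic reticulum, had 1 position with 69.0%, 58.9% and 63.0% in control F0 and 100%, 100%, 100%, 62.5% and 100% in control F1. At Zfp229 the position was at 0% in all control F0 mice and at 45.2%, 30.8%, 0%, 28.2% and 17.2% in control F1. The libraries titled Control F1 were all at 0% there too, and the median of the 20 young libraries was 0%. At Nudt1, which removes oxidized nucleotides, mice of both groups were either near full methylation or low, with 100%, 8.33% and 100% against 100%, 6.98%, 25.7%, 100% and 91.8%. No window of Tal2, Lefty2 or F930017D23Rik was called, and in none of the 19 windows were the groups free of overlap. The promoter window of Tal2, a T-cell leukaemia factor, was at 1.58% to 2.52% in control F0 and 1.35% to 2.67% in control F1 over 15 positions.

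Ribosomal RNA gene copies are mostly above the upper limit of coverage and were read separately, without it. Over 60 positions of Rn18s-rs5, an 18S ribosomal RNA copy at chr17:39846354-39848202 to which reads of the many other copies may align, control F0 measured 26.4%, 11.1% and 23.0%. Control F1 measured 20.6%, 9.89%, 20.9%, 10.6% and 15.7%, so that the groups overlapped (difference 4.64 points, two-sided exact permutation p = 0.321). The 20 young libraries spanned 7.14% to 25.2%. Control F0 replicate 1 was above that range.

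Against the 5 libraries titled Control F1, 6290 of 739259 positions and 1148 of 138892 windows were called, 64.5% of the windows lower in control F0. Against all 20 young libraries, which need coverage in 23 libraries, 1227 of 428993 positions and 300 of 99903 windows were called, 67.0% of them lower. These sets share the 3 control F0 mice, so that the excess of lower windows was not an independent observation in each.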

How the data were processed

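RRBS libraries of epididymal sperm were made with a commercial kit and sequenced as 50 bp single reads. Per the labels, reads were trimmed with Trim Galore 0.4.1, aligned with Bismark 0.20.0 to GRCm38 (mm10) and handled with methylKit 1.7.0. For each library the authors deposited, at each CpG position and strand, the raw count of reads and the fraction methylated. Fraction times count gave whole methylated reads (within 0.02) except at 13 of 16682121 entries of the 8 libraries. All 314876 positions inside RefSeq promoter sequences fell on the C of the listed strand.

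Autosomal positions needed at least 10 reads in all 8 libraries and at most the 99.9th percentile of each library. Reads were summed over 1000-bp windows. Each site was fitted by logistic regression and compared by likelihood ratio (chi-square, no overdispersion term), with Benjamini-Hochberg adjustment, a q-value under 0.01 and a read-weighted difference over 25 points. Single values per mouse were compared by exact permutation. Intervals and p-values cover these mice as sampled, and reads carry no molecular identifiers. Code was written in Python 3 with numpy and scipy, and limma 3.58.1 was run in R 4.3.3 on the log2 ratio of both read classes (pseudocount 1). The procedures were tested on simulated data.

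No 2 libraries were duplicates (smallest mean chi-square between any of 28 pairs 6.94 per window). The members, lists and tests were chosen with earlier results of these data known. Windows were named by these rules: per direction the 12 largest differences among DMRs without overlap, with at least 3 positions and an annotated gene with a symbol; DMRs with at least 3 positions outside the range of all 20 young libraries; called windows of each list and its 3 largest differences; and the genes followed in the study. A list gene's windows were those within 2000 bp (imprinted genes 5000 bp). Of the list genes, Rn45s, Nespas, Dnmt3c and Sox3 had no autosomal RefSeq match. Alternatives were other coverage limits, tests, thresholds, windows, young sets, a replicate block, merged strands and leaving out each library. Where libraries or coverage limits changed, covered positions were chosen anew.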

Additional observations from a re-analysis of the deposited data

Results flagged for a closer look

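In 36 groups of 5 control F1 values, 5 had 1 library far from the others by a gap test that chance passes in about 1 of 20 groups. Low windows of germline genes had a highest value of 5.58%. The Camta1 window had a lowest value of 24.0% and the Itpr2 window one of 1.16%, both in control F1 replicate 4. The promoter of 1700017J07Rik had a lowest value of 63.5%, also in control F1 replicate 4, and that of Gm46300 one of 60.6% in control F1 replicate 2. Without that library, covered positions were chosen anew. The read-weighted difference of control F0 minus control F1 was then 19.9 points for Camta1, no longer a call. It was 42.5 for Itpr2, 10.97 for 1700017J07Rik and -66.0 for Gm46300. Control F0 has too few mice for this test.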

How the results depend on the processing

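With at least 5 reads 12298 DMCs and 1880 DMRs were called, with at least 20 reads 1646 and 413, and at a difference over 10 points 49204 and 9587. The F test called 0 and 0 (2481 and 456 at an unadjusted p under 0.05) and limma 0 and 0 (3451 and 554). Windows with at least 3 positions gave 106 DMRs. Against all 10 WT libraries 2794 DMCs and 581 DMRs were called, and against all 20 young libraries 1227 and 300, where coverage in more libraries was required. Leaving out 1 library gave 7798 to 11637 DMCs and 1354 to 2119 DMRs, the most without control F0 replicate 1 (11421 and 1863 without replicate 2, 11448 and 2065 without replicate 3). The share of DMRs lower in control F0 was 60.98% over 10 points, 73.58% with at least 3 positions, 64.55% against the titled libraries, 71.6% against the WT libraries and 56.31% to 73.81% with 1 library left out.

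With 1 library left out, the mean difference ranged from -0.5475 to 0.07405 points, and that of low windows from -0.1943 to 0.02433, of middle windows from -2.449 to 0.3474 and of high windows from -0.2984 to 0.03849. Each was positive only without control F0 replicate 2. The difference of distances within groups was -0.01896 with at least 20 reads, -0.003095 against the titled, -0.003509 against the WT and -0.0412 against all 20 libraries, -0.01996 without thinning and -0.06136 to 0.09056 with 1 library left out. The excess between groups was 0.007865 against all 20 libraries, -0.001818 without thinning and -0.0155 to 0.02113 with 1 library left out. Promoters called were 11 against the titled, 8 against the WT and 5 against all 20 libraries, 0 by the F test and 19 to 39 with 1 library left out (39 and 33 without control F0 replicate 1 or 2, 26 without control F1 replicate 5). At 10 points they were 71 against all 20 libraries, 0 by the F test and 172 to 210 with 1 library left out.

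The read-weighted difference of Pmfbp1 was -0.8152 with at least 20 reads and -4.719 against the titled libraries, and that of Socs2 was 35.83 against the latter. Each setting keeps its own positions. At the positions of the main comparison the titled libraries averaged 7.99% and 83.7% against 38.7% and 61.4% in control F0, the direction of the main result. Of the other alternatives of single windows 162 kept their call and 39 did not, and of promoters 66 and 14. A replicate block gave 5479 DMCs and 1025 DMRs, but same-numbered mice did not deviate together (r of -0.00565, -0.0126 and 0.00235), so that the numbers were not taken as pairs. Median coverage of single positions was 24 to 38 reads.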
